A study of Mus musculus with 6 samples.

Results

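The 43 genes described here encode the machinery of DNA replication and the regulators that start S phase. They were chosen by gene symbol, and all 43 were among the 39174 genes in the table of each library. Primary motoneuron cultures of the mouse strain CD-1 were sequenced as 6 RNA libraries, 3 of the genotype Nmd+/+ and 3 of Nmd-/-. Nmd-/- animals carry the neuromuscular degeneration allele of Ighmbp2, the helicase gene whose deficiency causes the motoneuron disease SMARD1; Nmd+/+ is the unaffected genotype. No further treatment, age or culture time was labelled, and the labels do not say whether replicates were grown or dissected separately, so p-values measure only the spread between these libraries, which may be technical. Levels are FPKM, fragment counts scaled by transcript length and by library size, which allow genes to be compared per length.

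Replication starts at sites bound by the origin recognition complex, where Cdc6 and Cdt1 load the ring of Mcm subunits, the replicative helicase, before S phase begins. Cdc45 and the GINS proteins then turn the ring into a moving helicase, and primase, polymerases, the sliding clamp Pcna and its loader copy the DNA behind it. Most of these genes are transcribed around the entry into S phase under E2F factors, so their RNA marks dividing cells. Motoneurons no longer divide, and in a spinal culture such RNA is known from progenitors, glia and other proliferating cells.

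Stretches of DNA around the start show E2F-type sites for a part of this gene group. Promoter windows of 250 bases before to 50 after the start were found in RefSeq (GRCm38.p6) for 34 of the 43 genes. They were searched on both strands for the 4 forms TTTCCCGC, TTTCGCGC, TTTGCCGC and TTTGGCGC, which can overlap one another. At least 1 form was present for 13 of the 34 genes (38.2%), against 4.82% of the 9572 tested genes with a window and 2.60% of all 27025 genes with one. Among the Mcm helicase subunits it was present for Mcm3, Mcm5, Mcm6 and Mcm7 and absent for Mcm2, while Mcm4 had no window. All matches of Mcm3, Cdt1, Lig1 and Pold1 lay after the start. The stretches below are given 5′ to 3′ on the strand of the gene, with matches in capitals. They show an overlapping pair of sites in Mcm6 and in Mcm5, with a further separate site in Mcm6. Pola1 has a single site, and Rrm2 is the member with the highest mean FPKM. The window of Rrm2 held no match.
Mcm6 (chr1:128359725-128359835, minus strand): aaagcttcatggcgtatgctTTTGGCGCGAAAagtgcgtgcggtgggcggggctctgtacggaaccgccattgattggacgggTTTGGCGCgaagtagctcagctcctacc
Mcm5 (chr8:75109336-75109415, plus strand): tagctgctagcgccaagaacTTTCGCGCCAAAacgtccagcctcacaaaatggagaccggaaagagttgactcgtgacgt
Pola1 (chrX:93632234-93632313, minus strand): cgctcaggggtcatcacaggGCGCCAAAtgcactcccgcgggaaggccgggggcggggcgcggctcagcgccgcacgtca
Rrm2 (chr12:24708154-24708233, plus strand): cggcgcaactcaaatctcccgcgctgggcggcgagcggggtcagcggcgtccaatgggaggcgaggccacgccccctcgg
A CCAAT box (CCAAT, both strands) was present for 22 of the 34 genes, 64.7% against 43.7% of the tested genes. The CHR forms TTTGAA and TTCGAA, known from genes of later cell cycle stages, were present for 6 of the 34, 17.6% against 15.7%. A match is a run of letters, not a measured binding site.

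The labelled cell type was checked first. The motoneuron genes Chat and Mnx1 did not exceed 0.0692 and 0.0247 FPKM in any library, and 2 of 9 motoneuron markers in the files (Isl1 and Ret) reached a mean of 1 FPKM. All 11 neuron markers and all 10 radial glia and astrocyte markers reached it, and Mki67, a gene of dividing cells, measured at least 58.3 FPKM and at most 92.9 FPKM. Microglial and endothelial markers reached it for 1 of 10. In RNA of whole cultures, fewer cells of a type and less RNA per cell cannot be told apart. Ighmbp2, the mutated gene, lay between 1.09 and 1.44 FPKM in the Nmd+/+ libraries and between 0.598 and 0.876 FPKM in the Nmd-/- libraries (log2 difference -0.38, SE 0.14; limma adjusted p = 0.9997). The genotypes did not overlap. The libraries numbered 2 stood apart by fibroblast transcripts (summed level of 8 markers 324.5 and 374.3 FPKM, between 45.1 and 87.1 FPKM in the others). Nmd+/+ replicate 2 and Nmd-/- replicate 3 carried the Y-linked transcript Eif2s3y (21.2 and 19.6 FPKM) and the other 4 libraries did not. The width of the Cufflinks intervals corresponded to between 15382006 and 23072449 fragments per library, an estimate and not a count of reads.

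All 43 genes were expressed, each above 1 FPKM in all 6 libraries, so all 43 entered the test, which required a mean of 1 FPKM or more, and none did so through 1 genotype alone. Their means over the 6 libraries had a median of 17.2 FPKM, against 11.0 FPKM for the 14611 genes tested. As listed, Rrm2 had the highest mean FPKM, followed by Pcna and Slbp, and Gins3 the lowest. A copy of Pcna at a similar level, given below, leaves the level and the rank of Pcna uncertain. The ratio of the highest to the lowest library was between 1.24 (Orc6) and 2.08 (Mcm10), with a median of 1.56. Differences between genes of the list were thus far wider than those of 1 gene between libraries.

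**Figure D1:**
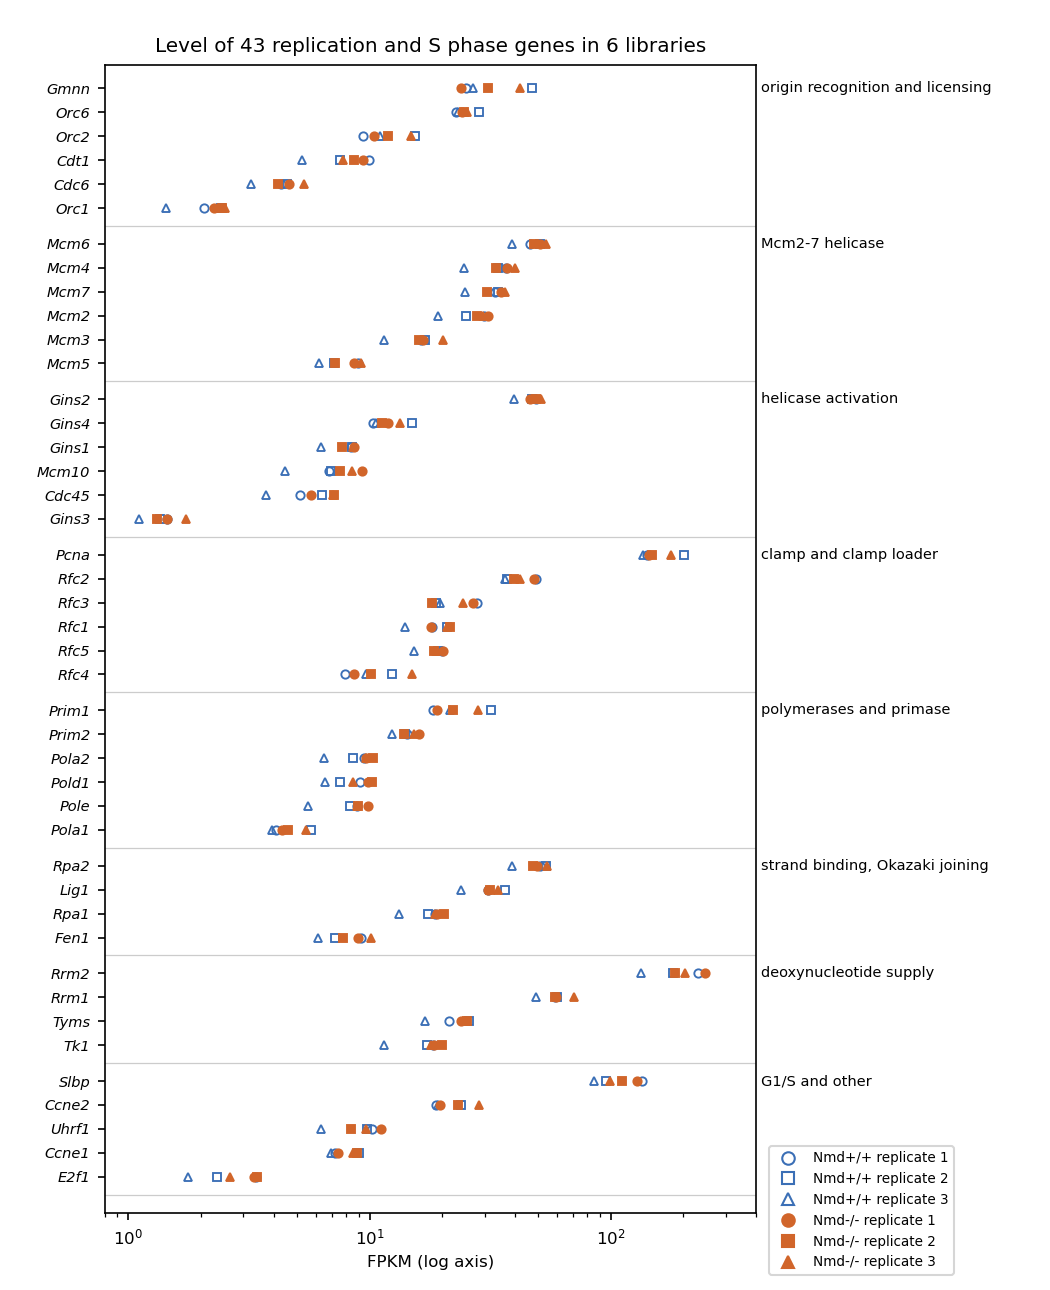
Level of each of the 43 genes in FPKM (log axis), 1 symbol per library, grouped by role. Nmd+/+ replicate 3 (open triangle) is the leftmost symbol for 35 of the 43 genes.

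Between genotypes none of the 43 genes passed the test. In limma 0 of 43 reached an adjusted p under 0.05, and without adjustment 1 gene did. Over all 14611 genes 0 passed as well (0%), and 0.445% had an unadjusted p under 0.05. With the replicate number as a block, since same-numbered libraries deviated together, again 0 of 43 and 0% of all genes passed. In that fit 4 of 43 genes had an unadjusted p under 0.05, all higher in Nmd-/-, against 4.87% of all genes in either direction, 3.13% toward higher and 1.74% toward lower values. The smallest adjusted p of a member was 0.9997, and 0.944 with the block. The fitted difference was above 0 for 40 of the 43 genes, against 56% of all genes, and its median was 0.16 on the log2(FPKM + 1) scale, against 0.02 for all genes. The SE of a single gene lay between 0.13 and 0.29, and the difference was smaller than 1 SE for 21 genes and smaller than 2 SE for 42. The Nmd-/- library was higher in 3 of 3 pairs for 10 genes (14.9% of all genes) and lower in 3 of 3 for 0 (10.6%). Without Nmd+/+ replicate 3 the median became 0.05, with 29 of 43 genes above 0 (48.4% of all genes). Without both libraries numbered 3 it became -0.01, with 21 of 43 (52.0% of all genes). With limma's sample quality weights it was 0.34, with 43 of 43 (57.6% of all genes).

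The libraries numbered 3 stood at the ends of the range. Nmd+/+ replicate 3 held the lowest value of 35 of the 43 genes (81.4%), whereas it was the lowest library for 28.6% of all genes tested. It held the highest value for 0 of the 43 (12.4% of all genes). Nmd-/- replicate 3 was the highest library for 14 genes (6.14% of all genes) and Nmd+/+ replicate 2 for 10 (26.5%). Nmd-/- replicate 1 was highest for 8 (16.7%), Nmd-/- replicate 2 for 7 (18.0%) and Nmd+/+ replicate 1 for 4 (20.3%). The FPKM of the 43 genes summed to 1267, 1283 and 962 in Nmd+/+ replicates 1, 2 and 3, and to 1298, 1209 and 1334 in the Nmd-/- replicates. The lowest and the highest sum thus both belonged to libraries numbered 3, and the other 4 lay between them.

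**Figure D2:**
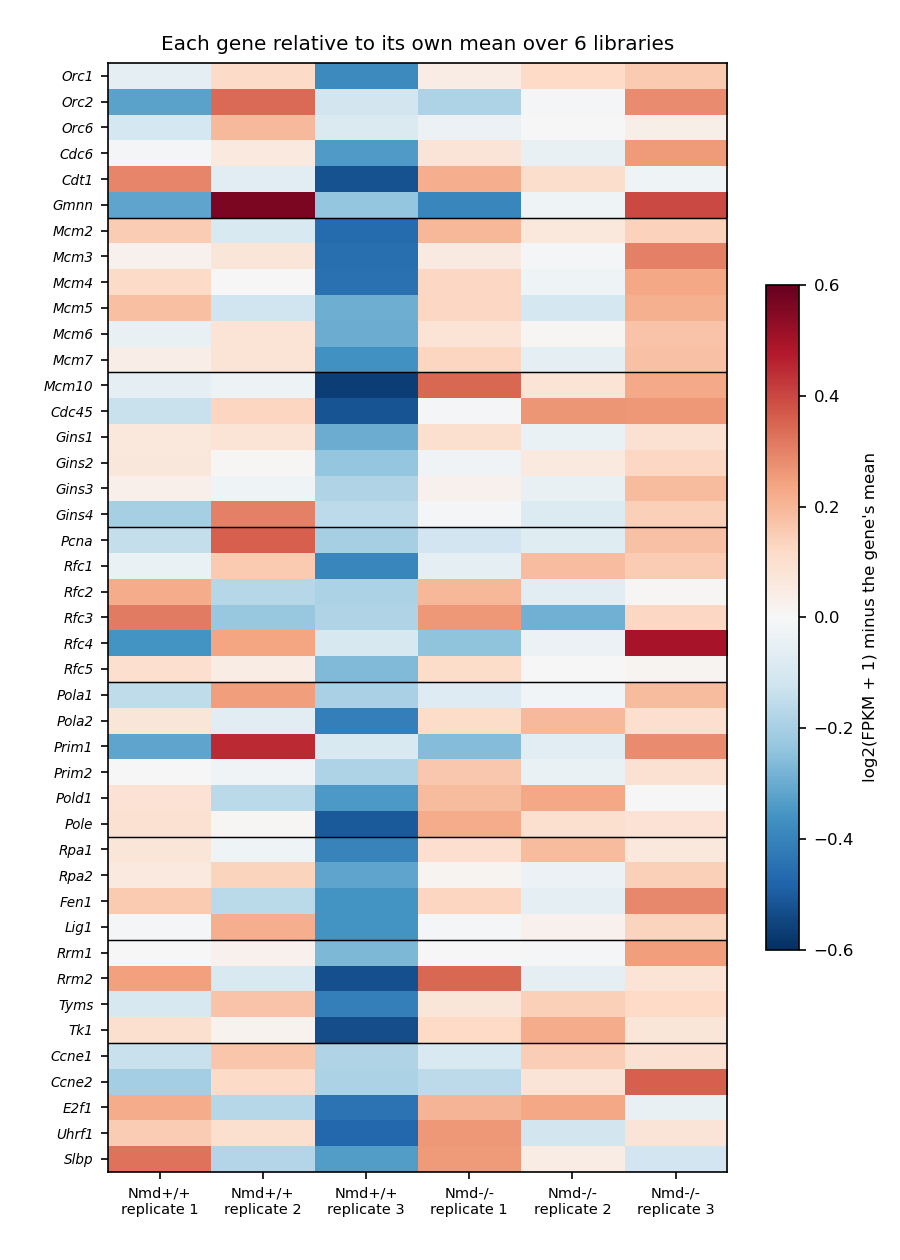
Each row is a gene and each column a library; color gives log2(FPKM + 1) minus the gene's mean over the 6 libraries, and black lines separate the role groups. Nmd+/+ replicate 3 is the lowest library for 35 of the 43 genes, and Orc2, Gmnn, Pcna and Prim1 are highest in Nmd+/+ replicate 2.

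Within replicate numbers the median difference was largest in the third pair. The median difference over the 43 genes, Nmd-/- minus Nmd+/+ on the log2(FPKM + 1) scale, was 0.04 in pair 1, -0.02 in pair 2 and 0.50 in pair 3. Over all genes tested these medians were -0.001, 0.02 and 0.04. The Nmd-/- library was higher for 31 of 43 genes in pair 1 (49.4% of all genes), 18 in pair 2 (52.7%) and 43 in pair 3 (57.5%). In pair 3 the differences ran from 0.12 (Orc6) to 0.79 (Mcm10). The Cufflinks interval of the Nmd-/- library lay wholly above that of its partner for 41 of 43 genes in pair 3, against 24.6% of all genes, and for the remaining Orc6 and Ccne1 the intervals overlapped. In pair 1 this held for 3 genes, Mcm6, Mcm10 and Prim2 (4.73% of all genes), and no interval lay below. In pair 2 it held for 6 genes (21.1% of all genes), and for 8 the Nmd-/- interval lay below (18.9%). The intervals cover estimation error within a library, not differences between cultures, and with 1 library per genotype in a pair the pairs themselves could not be tested against each other.

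**Figure D3:**
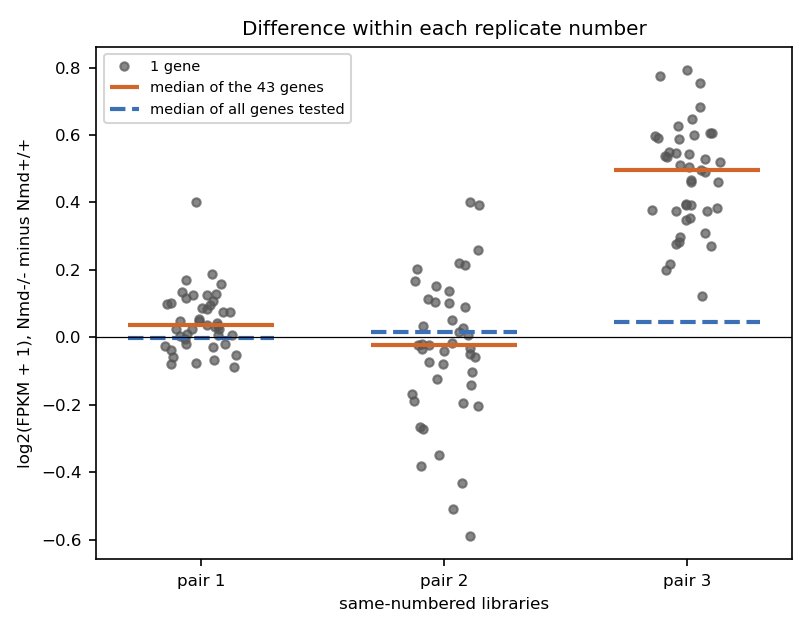
Difference between same-numbered libraries, Nmd-/- minus Nmd+/+ in log2(FPKM + 1); each point is 1 of the 43 genes, solid lines are their medians (0.04, -0.02 and 0.50) and dashed lines the medians of all genes tested. All 43 points lie above 0 in pair 3, and 18 do in pair 2.

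Genes of origin recognition and licensing, 6 in all, did not share an order of libraries. In what follows the 3 values of a genotype stand in the order of replicates 1, 2 and 3. Gmnn encodes geminin, which binds Cdt1 and prevents a second round of loading, and was the most abundant of the group (chr13:24751845-24761923). It measured 25.2, 47.1 and 26.8 FPKM in Nmd+/+ and 23.8, 31.0 and 41.9 FPKM in Nmd-/-. The ranges of the genotypes overlapped, with a log2 difference of -0.01 (SE 0.29, 95% interval -0.69 to 0.66). Its target Cdt1, the loading factor, took another order, with 9.98, 7.56 and 5.23 FPKM in Nmd+/+ and 9.40, 8.62 and 7.79 FPKM in Nmd-/-. The ratio of Gmnn to Cdt1 was lowest in the libraries numbered 1 (2.53 and 2.54), 5.12 and 5.38 in the libraries numbered 3, and unequal in those numbered 2, at 6.23 in Nmd+/+ and 3.60 in Nmd-/-. Orc1, the largest subunit of the origin recognition complex, had the smallest p of the group. It measured 2.05, 2.43 and 1.43 FPKM against 2.27, 2.44 and 2.53 FPKM, a log2 difference of 0.21 (SE 0.16; limma adjusted p = 0.9997). The Nmd-/- values lay close together, and without Nmd+/+ replicate 3, the lowest, the log2 difference was 0.08, and without Nmd+/+ replicate 2 it was 0.325. Orc2 and Orc6, the other subunits, lay between 9.42 and 15.5 FPKM and between 22.9 and 28.4 FPKM, and Cdc6, the loading ATPase, between 3.21 and 5.36 FPKM.

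The helicase subunits of the Mcm ring shared their lowest library. All 6 were lowest in Nmd+/+ replicate 3, and their pair 3 differences lay between 0.47 and 0.75. Mcm6 (chr1:128331591-128359656), the most abundant subunit, measured 46.4, 50.8 and 38.8 FPKM in Nmd+/+ and 50.8, 48.2 and 54.0 FPKM in Nmd-/- (log2 difference 0.17, SE 0.14; limma adjusted p = 0.9997). Mcm2 (chr6:88883475-88898780), with the smallest p of the ring, measured 29.9, 25.1 and 19.2 FPKM against 30.9, 28.0 and 29.6 FPKM (log2 difference 0.27, SE 0.17; limma adjusted p = 0.9997). For neither gene were the genotypes apart, and without Nmd+/+ replicate 3 the differences were 0.07 and 0.10. Without Nmd+/+ replicate 1 that of Mcm2 was 0.41, and without Nmd+/+ replicate 2 that of Mcm6 was 0.26. The subunits form the ring in equal numbers, but their RNA levels were not equal. Mcm5 lay between 6.19 and 9.20 FPKM, Mcm3 between 11.5 and 20.1 FPKM, and Mcm4 and Mcm7 between 24.6 and 40.1 FPKM. The level of Mcm6 was between 5.17 and 7.17 times that of Mcm5 in each library.

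Among the factors that activate the helicase, Mcm10 came closest to a difference between genotypes. Mcm10 (chr2:4989714-5012791), which helps the helicase to start moving, measured 6.79, 6.91 and 4.46 FPKM in Nmd+/+ and 9.29, 7.56 and 8.46 FPKM in Nmd-/-. Every Nmd-/- value lay above every Nmd+/+ value, with log2 differences of 0.40, 0.11 and 0.79 in pairs 1, 2 and 3. The log2 difference was 0.44 (SE 0.18, 95% interval 0.02 to 0.86), and limma gave an unadjusted p of 0.0440, an adjusted p of 0.9997 and, once the number was a block, an adjusted p of 0.944. It was between 0.26, without Nmd+/+ replicate 3, and 0.53 when any 1 library was left out. Groups without overlap and higher in Nmd-/- occurred for 2 of the 43 genes, Mcm10 and Pola2, and for 1.76% of all genes; lower ones occurred for 0 of the 43 and for 0.91% of all genes. Cdc45, the partner of the Mcm ring in the active helicase, is named here after its values were seen. It measured 5.16, 6.38 and 3.71 FPKM against 5.72, 7.11 and 7.07 FPKM, higher in 3 of 3 pairs (log2 difference 0.35, SE 0.19; limma adjusted p = 0.9997), and the genotypes overlapped. Gins2, the most abundant GINS subunit, measured 49.2, 47.1 and 39.8 FPKM against 46.2, 48.8 and 51.1 FPKM (log2 difference 0.11, SE 0.13; limma adjusted p = 0.9997). Leaving out Nmd+/+ replicate 3 brought its difference to 0.017, and leaving out Nmd+/+ replicate 1 to 0.17. The GINS subunits, which also join in equal numbers, were unequal as RNA: Gins3 lay between 1.11 and 1.73 FPKM, Gins1 between 6.28 and 8.59 FPKM and Gins4 between 10.3 and 15.0 FPKM. In each library Gins2 was between 29.5 and 37.0 times Gins3.

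The sliding clamp and its loader showed the smallest median difference of the role groups, 0.09. Pcna (chr2:132249162-132253314), the clamp that holds polymerases on DNA, measured 141, 201 and 136 FPKM in Nmd+/+ and 144, 148 and 177 FPKM in Nmd-/-. Its highest value and its lowest value were both Nmd+/+ libraries, and the log2 difference was -0.01 (SE 0.19, 95% interval -0.44 to 0.43). A copy of the gene on chromosome 19 (9283238 to 9284494), Pcna-ps2, lay between 127 and 191 FPKM, between 0.896 and 0.976 times Pcna in each library. Reads of the copies may not have been told apart, so the level of Pcna itself is uncertain. Rfc1, the large subunit of the loader, had the smallest p of the group, at 18.2, 21.0 and 14.0 FPKM against 18.0, 21.5 and 20.9 FPKM (log2 difference 0.18, SE 0.17; limma adjusted p = 0.9997). Without Nmd+/+ replicate 3 its difference was 0.03, and without Nmd+/+ replicate 2 it was 0.31. The small loader subunits did not share an order of libraries. Rfc2 and Rfc3 were highest in the libraries numbered 1, at 49.0 and 48.1 FPKM and at 27.9 and 26.8 FPKM. Rfc4 was lowest there, at 7.90 and 8.65 FPKM, and reached 15.1 FPKM in Nmd-/- replicate 3. Rfc5 lay between 15.3 and 20.1 FPKM.

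Polymerase and primase genes differed in their highest library. Prim1, the catalytic primase subunit, was the most abundant, at 18.4, 31.8 and 21.6 FPKM in Nmd+/+ and 19.1, 22.1 and 28.3 FPKM in Nmd-/- (log2 difference -0.03, SE 0.23; limma adjusted p = 0.9997). Like Gmnn and Pcna it was highest in Nmd+/+ replicate 2 and next highest in Nmd-/- replicate 3. Pold1, the catalytic subunit of polymerase delta, had the smallest p of the group, at 9.16, 7.54 and 6.51 FPKM against 9.89, 10.2 and 8.56 FPKM. It was higher in Nmd-/- in 3 of 3 pairs, with a log2 difference of 0.28 (SE 0.15, 95% interval -0.08 to 0.64; limma adjusted p = 0.9997, and 0.990 with the block), and the genotypes overlapped. Without Nmd+/+ replicate 3 the difference was 0.18, and without Nmd+/+ replicate 1 it was 0.39. Pola2, an accessory subunit of polymerase alpha named after its values were seen, measured 9.44, 8.50 and 6.48 FPKM against 9.71, 10.4 and 9.65 FPKM. Its genotypes did not overlap, though the gap between 9.44 and 9.65 FPKM was small (log2 difference 0.27, SE 0.15; limma adjusted p = 0.9997). Pole, the catalytic subunit of the leading-strand polymerase, lay between 5.54 and 9.82 FPKM, Pola1, that of polymerase alpha, between 3.95 and 5.72 FPKM, and Prim2, the large primase subunit, between 12.4 and 16.1 FPKM.

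Genes for covering and joining single strands kept to the general pattern, each lowest in Nmd+/+ replicate 3. Rpa2, a subunit of the single-strand binding protein RPA, measured 50.9, 53.7 and 39.1 FPKM in Nmd+/+ and 49.6, 47.7 and 54.2 FPKM in Nmd-/- (log2 difference 0.09, SE 0.16; limma adjusted p = 0.9997). Its sign turned without Nmd+/+ replicate 3, to -0.05. Rpa1, the large RPA subunit, measured 18.8, 17.5 and 13.2 FPKM against 19.1, 20.4 and 18.6 FPKM (log2 difference 0.23, SE 0.16; limma adjusted p = 0.9997), and its difference without that library was 0.09. Without Nmd+/+ replicate 2 the difference of Rpa2 was 0.17, and without Nmd+/+ replicate 1 that of Rpa1 was 0.33. Lig1, the ligase that seals Okazaki fragments, lay between 24.0 and 36.3 FPKM, and the flap nuclease gene Fen1 between 6.13 and 10.2 FPKM.

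Enzymes of deoxynucleotide supply included the member with the highest mean FPKM. Rrm2 (chr12:24708241-24714146), the small subunit of ribonucleotide reductase made in S phase, measured 229, 181 and 133 FPKM in Nmd+/+ and 245, 185 and 204 FPKM in Nmd-/-. The libraries numbered 1 were the highest in both genotypes, and the log2 difference was 0.25 (SE 0.22, 95% interval -0.27 to 0.76; limma adjusted p = 0.9997), or 0.04 without Nmd+/+ replicate 3. Leaving out Nmd+/+ replicate 1 gave 0.43, and leaving out Nmd-/- replicate 1 gave 0.13. Rrm1, the large subunit, which lay between 48.8 and 70.5 FPKM, followed another order, and the ratio of Rrm2 to Rrm1 ran from 2.73 in Nmd+/+ replicate 3 to 4.14 in Nmd-/- replicate 1. This ratio was 3.89 and 4.14 in the libraries numbered 1, 3.01 and 3.16 in those numbered 2 and 2.73 and 2.89 in those numbered 3, so it went with the number and overlapped between genotypes. Tk1, the thymidine kinase gene, had the smallest p of the group, at 18.2, 17.3 and 11.4 FPKM against 18.6, 20.0 and 18.0 FPKM (log2 difference 0.28, SE 0.19; limma adjusted p = 0.9997), and 0.08 without Nmd+/+ replicate 3. Without Nmd+/+ replicate 1 the log2 difference of Tk1 was 0.395. The thymidylate synthase gene Tyms lay between 16.9 and 25.8 FPKM.

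The remaining members act at the start of S phase or beside the fork. Slbp, which binds the stem loop of histone mRNAs, was the most abundant, at 135, 95.5 and 85.3 FPKM in Nmd+/+ and 129, 111 and 99.4 FPKM in Nmd-/- (log2 difference 0.12, SE 0.20; limma adjusted p = 0.9997). Its difference turned to -0.01 without Nmd+/+ replicate 3 and was 0.32 without Nmd+/+ replicate 1. E2f1, the activating E2F factor, had the smallest p, at 3.38, 2.34 and 1.77 FPKM against 3.33, 3.41 and 2.64 FPKM (log2 difference 0.26, SE 0.19; limma adjusted p = 0.9997), and the genotypes overlapped. With Nmd+/+ replicate 3 left out its difference was 0.10, and with Nmd+/+ replicate 1 left out 0.44. Both cyclin E genes, which activate Cdk2 at the start of S phase, were expressed. Ccne2 was the more abundant in every library, between 18.9 and 28.5 FPKM, and Ccne1 lay between 6.90 and 9.05 FPKM. Their ratio lay between 2.60 and 2.78 in 5 libraries and was 3.34 in Nmd-/- replicate 3. Uhrf1, which guides the copying of DNA methylation, lay between 6.29 and 11.1 FPKM.

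Genes with and without an E2F-type match had these values. In pair 3 the median was 0.50 for the 13 genes with a match and 0.51 for the 21 without, and the fitted differences had medians of 0.16 and 0.18. Their median level was 8.64 FPKM with a match and 18.6 FPKM without.

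Other genes of the pathway were also lowest in Nmd+/+ replicate 3 by their median, and none passed the test in limma. Without adjustment, p was under 0.05 for 0 of the replication genes, 0 of the regulators and 1 of the mitosis genes (0.445% of all genes). With the replicate block these counts were 2, 1 and 4, all higher in Nmd-/- (3.13% of all genes). Of 45 tested replication genes outside the list 0 passed, and 36 were higher in Nmd-/- by their fitted difference (56% of all genes). The pair medians over the 45 were 0.04, -0.16 and 0.33. The smallest p belonged to Pold3, at 14.0 ± 2.0 FPKM in Nmd+/+ and 17.1 ± 0.5 FPKM in Nmd-/- (SD, n = 3 each), Pold2, both accessory subunits of polymerase delta, and Chaf1a, a chaperone subunit that places histones behind the fork. Their log2 differences were 0.28, 0.27 and 0.21. Of 28 regulators of G1 and S phase 0 passed, and 23 were higher (56% of all genes). Pair medians over the 28 were 0.05, -0.08 and 0.44. Ccnd3, a D-type cyclin, had the smallest p, at 34.7 ± 6.8 and 44.7 ± 1.6 FPKM (SD, n = 3 each; log2 difference 0.38, SE 0.17; limma adjusted p = 0.9997, and 0.944 with the block), followed by the repressor E2f8 (0.26) and the E2F partner Tfdp2 (0.19). All 20 mitosis genes were higher by their fitted difference (56% of all genes). Of these 0 passed, and the pair medians were 0.07, -0.08 and 0.61. Cenpf, Kif20a and Plk1, which act at the spindle and kinetochore, had the smallest p, with log2 differences of 0.37, 0.36 and 0.36. Nmd+/+ replicate 3 was the lowest library for 15 of the 20 mitosis genes (28.6% of all genes). The summed mitosis FPKM was 816 in that library and 1222 in its partner.

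**Figure D4:**
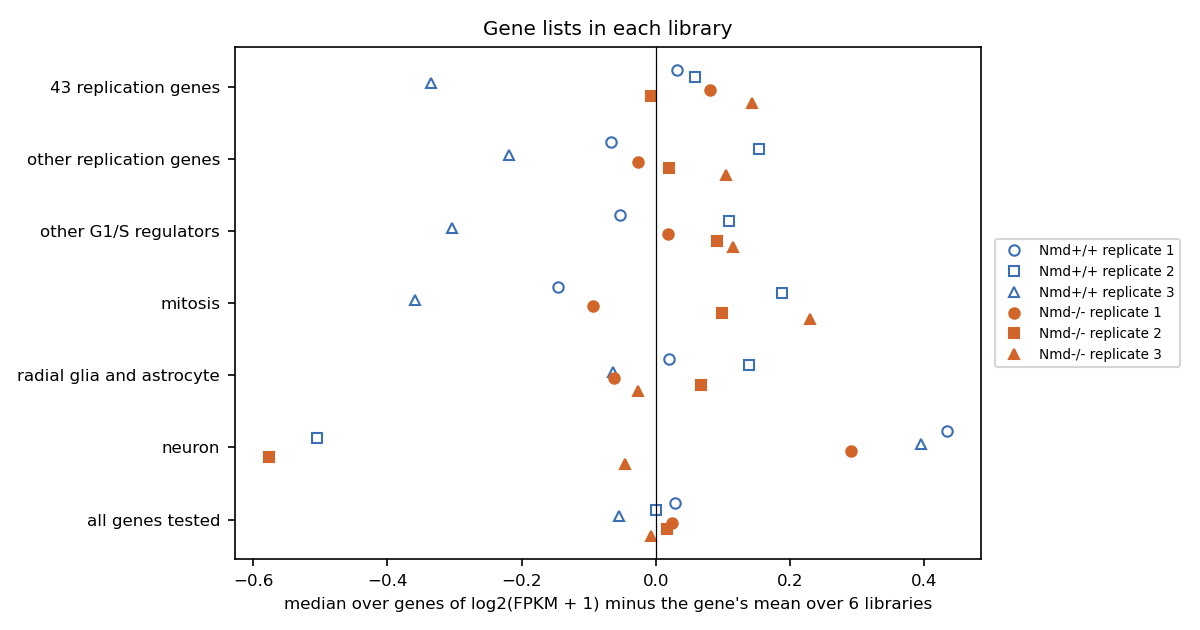
For each gene list and library, the median over tested genes of log2(FPKM + 1) minus the gene's mean over 6 libraries. Nmd+/+ replicate 3 is lowest for the 43 replication genes (-0.33), the other cell cycle lists and mitosis (-0.36); neuron genes are lowest in the libraries numbered 2.

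Several measures differed between the libraries numbered 3. Neuron markers summed to 1719 FPKM in the Nmd+/+ library and to 1316 FPKM in the Nmd-/- library, and all 11 were lower in the latter. Over the other 4 libraries the neuron sum was 1765 and 1647 FPKM in those numbered 1 and 875 and 890.4 FPKM in those numbered 2. Of the 11 markers, 2 were higher in Nmd-/- in pair 1 (49.4% of all genes) and 4 in pair 2 (52.7%). By the fitted difference 0 of the 11 were higher (56% of all genes). Markers of the oligodendrocyte lineage summed to 51.0 and 30.6 FPKM in the Nmd+/+ and Nmd-/- libraries numbered 3. The median difference was -0.73 over 6 tested markers, of which 1 was higher in Nmd-/-. In the libraries numbered 1 the sums were 67.4 and 42.2 FPKM (median difference -0.53). In those numbered 2 they were 55.1 and 52.4 FPKM (-0.16). By the fitted difference 0 of the 6 markers were higher in Nmd-/- (56% of all genes). Radial glia and astrocyte markers summed to 3172 and 4248 FPKM in the libraries numbered 3, with Vim at 2380 and 3470 FPKM, and 5 of the 10 were higher in Nmd-/-. Transcripts of the mitochondrial genome made up 26.6% of the summed FPKM in the Nmd+/+ library, more than in any other, against 23.5% in its partner. These libraries also differed in sex, as read from Xist (272.6 and 0.143 FPKM). In pair 2 it was the Nmd+/+ library that had the low Xist level (0.155 FPKM). The part of these measures in the difference of pair 3 was not tested.

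The difference between libraries numbered 2 and 1 was set against sequence properties of the genes; the libraries numbered 3 were not compared in this way. Averaged over genotypes, it went with the GC content of the longest coding transcript across the 43 genes (Pearson r = -0.40), and in the same direction across 12378 tested genes with a coding transcript (r = -0.37). Within Nmd+/+ r was -0.48 for the 43 genes and -0.47 for all, and within Nmd-/- it was -0.18 and -0.21. With transcript length, averaged over genotypes, r was -0.16 for the 43 genes and -0.02 for all. These correlations are across genes of shared libraries and are given as a description.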

How the data were processed

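RNA-seq libraries of 3 Nmd+/+ and 3 Nmd-/- primary motoneuron cultures were compared. The authors deposited FPKM per gene with interval bounds and a status, 1 table per library, in the layout of Cufflinks per the file headers. Cufflinks 2.2.1, the build GRCm38 and, for reads, cutadapt 1.8 and Trim Galore 0.4.0 come from the submitters' processing notes. For the aligner version, annotation release and strand setting: not given in the sources used here. Since 18 of the 43 genes overlap a gene on the opposite strand in GENCODE M21, their values may include its reads. Coordinates are printed from 1; adding 1 to the files' starts gave the GENCODE start for 77.8% of 37604 genes.

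Values were compared as log2(FPKM + 1) in R 4.3.3 with limma 3.58.1 (intensity trend, genotype as the only term, no rescaling), two-sided, over 14611 genes with a mean of at least 1 FPKM and an accepted status in each library. A failed status removed 28 genes. P-values were adjusted by Benjamini-Hochberg over all genes tested, at a threshold of 0.05. Differences on this scale understate changes of low genes. The procedure was tested on simulated data. Same-numbered libraries deviated together from their group means (r = 0.82, 0.70 and 0.39 across genes for numbers 1, 2 and 3). Between unlike numbers r ran from -0.81 to 0.28, the highest for Nmd+/+ replicate 3 with Nmd-/- replicate 1. The value for number 3 was thus the closest to those of unlike numbers. The pairing rests on these values and not on a label, and the block was an alternative. Fragments were estimated as those whose counting error alone would give the Cufflinks intervals, and are not counts of reads. Mcm2, at a mean of 27.1 FPKM and a transcript of 3371 bases, had between 2696 and 5294. Rfc1, at 18.9 FPKM and 4751 bases, had between 441 and 832.

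The 43 genes, the lists and the tests were chosen with earlier results of these data known. Described in full were, for each of the 8 role groups, the member with the highest mean FPKM and that with the smallest unadjusted p; from the lists of other replication genes, G1/S regulators and mitosis, the 3 genes with the smallest p.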

Additional observations from a re-analysis of the deposited data

How the results depend on the processing

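In all 17 alternatives tried, 0 of the 43 genes (38 of them tested at a minimum mean of 5 FPKM) and 0 of all genes passed. The smallest adjusted p of a member was 0.737 in limma with sample quality weights, where 18 of 43 genes had an unadjusted p under 0.05 (977 of all genes), and the replicate block gave 0 calls with the same median of 0.16. The median difference of the 43 genes lay between 0.14 (median-of-ratios scaling) and 0.34 (sample quality weights) under the settings that kept all 6 libraries. When 1 library was left out it lay between 0.05 and 0.24. Without both libraries numbered 3 it was -0.01, with 21 of 43 genes higher in Nmd-/- (52.0% of all genes). It was 0.26 without both numbered 2, with 43 of 43 higher (55.2% of all genes), and 0.22 without both numbered 1. Median-of-ratios scaling moved the share of all genes higher in Nmd-/- from 56% to 48.7% and left 39 of the 43 genes higher. The median of pair 3 lay between 0.45 and 0.55 under the scaling, filter and pseudocount alternatives.

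Signs were followed only for the members described in full. Among these they turned for Gmnn, Pcna, Prim1, Gins2, Rpa2 and Slbp, whose fitted differences lay between -0.03 and 0.12. Over the whole list 40 of 43 genes were higher in Nmd-/- as reported, and 21 without both libraries numbered 3. Sample quality weights gave 0.35 for Gmnn, 0.21 for Pcna and 0.21 for Prim1. Without both libraries numbered 2 they were 0.28, 0.20 and 0.215, and without both numbered 1 Gmnn was 0.020. Without both numbered 3, Gins2 was -0.018 and Rpa2 -0.10. With 1 library left out, the ranges were -0.21 to 0.27 (Gmnn), -0.11 to 0.17 (Pcna), -0.19 to 0.19 (Prim1), -0.052 to 0.17 (Rpa2) and -0.014 to 0.32 (Slbp). Depth was lowest for Orc1, whose value in 1 library rested on the equivalent of 47.3 fragments.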
